A study of Sus scrofa with 6 samples.

Results

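The miRNAs described here are the pig miRNAs with high catalogue numbers. They were chosen by name alone, as known pig entries called miR- with a number of 1200 or more. The rule took 66 entries, from 52 catalogue numbers, out of 1645 entries in the deposited table, of which 358 carry a known pig name and the rest are predicted. The entries next to the limit were miR-935 below it, at 25.81 to 37.51 TPM, and miR-1224 above it, at 0 in 5 libraries and 0.03 TPM in control replicate 3.

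The cells were immature Sertoli cells from fetal pig testis (80 to 90 days of gestation). They were plated, kept for 6 h and then either left untreated (control, 3 libraries) or given 250 µM AA2P (3 libraries), which is L-ascorbic acid 2-phosphate sesquimagnesium salt, a stable vitamin C derivative. All cultures had medium with 10% fetal bovine serum. The labels state no exposure time and no separate animals or cultures behind the 3 libraries of a group, so the spread that enters each p-value may be purely technical.

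A miRNA is cut from a hairpin in a longer transcript, first by the Microprocessor (Drosha with DGCR8) in the nucleus and then by Dicer in the cytoplasm, and 1 of the arms, 5p or 3p, is usually kept in an Argonaute protein. Bases near its 5′ end pair with target mRNAs, which are then repressed with the help of TNRC6 proteins. Catalogue numbers follow the order of discovery. Low numbers went mostly to old, widely shared families, and high numbers mostly to miRNAs found later by sequencing, many of them known from few species. A high number is therefore a sign of late discovery and not a measure of how old a miRNA is. No sequences were used here, so conservation was not measured.

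The deposited TPM (per-million values) sum to 1000000 in each library, over known and predicted entries together. Read from the smallest step between low values, 1 TPM stood for 25.8 to 36.0 reads, and 3 reads, the limit that a count of 0 allows, for 0.0834 to 0.116 TPM. Lists of marker miRNAs of several cell types were summed per library, and a list does not show which cells its miRNAs came from. The 7 blood markers reached 4.87 to 5.90 TPM in controls and 4.48 to 14.25 TPM with AA2P. The 2 endothelial markers reached 98.4 to 111.9 and 86.8 to 111.3 TPM, and the 6 muscle and myoid markers 167.6 to 227.5 and 219.4 to 307.0 TPM. The 2 listed germ cell markers (of 3), a list that holds a gonadal somatic miRNA too, stood at 169.5 to 184.1 and 213.8 to 283.3 TPM. The 3 listed epithelial markers (of 5), a list set for Sertoli cells too, stood at 1588 to 1675 and 2414 to 2959 TPM. None of the listed markers was at 0 throughout, and their part in the results below was not tested. In such bulk libraries fewer cells of a type and less RNA per cell cannot be told apart.

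The high-numbered miRNAs were a small and uneven share of the small RNA. Together they took 0.648, 0.572 and 0.579% of the TPM in control replicates 1, 2 and 3 and 0.710, 0.687 and 0.660% in AA2P replicates 1, 2 and 3. The AA2P libraries all lay above the controls, with means of 0.686% ± 0.0254 and 0.600% ± 0.0418 (SD, n = 3 per group), 1.14-fold higher in the deposited TPM. The ratio of the group means fell below 1 under the other scalings run for this sum. The ratio was 0.949 under median-of-ratios scaling, 0.943 under trimmed-mean scaling and 0.933 once the totals left out miR-21-5p. Quantile normalization and totals without the 10 most abundant entries were not run for it. miR-21-5p, the dominant miRNA of these cells, stood at 520562 ± 8757 TPM in controls and 410890 ± 36994 TPM with AA2P, and its part in the sum of the members was not tested beyond that. Mean levels reached 100 TPM or more in 11 members, lay between 10 and 100 TPM in 15, between 1 and 10 TPM in 20, and under 1 TPM in 20. The 3 most abundant held 52.8% of the summed TPM of the members and the 10 most abundant 86.0%.

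miR-7857-3p led, at 1251.18, 1088.14 and 1111.45 TPM in controls and 1295.56, 1535.48 and 1284.23 TPM with AA2P. It ranked 58th among the 358 known entries. In the RefSeq gene table its hairpin lies in no gene, and the nearest gene on either side is a serine tRNA gene. miR-1307, whose hairpin lies within the span of USMG5, a gene for an ATP synthase subunit, stood at 1162.60, 913.33 and 983.07 TPM and at 1211.79, 1212.80 and 1092.29 TPM. miR-1271-5p, from within ARL10, a small GTPase gene, stood at 1044.55, 939.32 and 950.00 TPM and at 1119.91, 1063.99 and 1084.32 TPM. The 3 did not pass the test (limma, adjusted p = 0.120, 0.201 and 0.150). The groups overlapped for miR-1307 but not for miR-7857-3p and miR-1271-5p, where every AA2P library lay above every control library. Within the controls the ranges of neighbours overlapped, so the order of these 3 there is not firm.

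miR-6529 came next, at 615.91, 586.37 and 562.02 TPM in controls and 782.00, 644.04 and 729.42 TPM with AA2P. Its AA2P libraries all lay above its controls (588 ± 27.0 and 718 ± 69.6 TPM), without passing the test (limma, adjusted p = 0.0746). miR-7134-3p stood at 453.34, 419.28 and 416.43 TPM and at 457.19, 403.47 and 401.73 TPM, with overlapping groups (limma, adjusted p = 0.771). Its hairpin lies within TNRC6B, itself a gene of the silencing machinery. miR-2320-5p stood at 423.84, 334.15 and 381.61 TPM and at 462.54, 447.70 and 416.35 TPM (limma, adjusted p = 0.165). The ranges of miR-7134-3p and miR-2320-5p overlapped in each group.

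miR-1343 lies within PDHX, a gene of the pyruvate dehydrogenase complex, and stood at 231.92, 217.55 and 190.59 TPM in controls and 193.00, 210.57 and 189.56 TPM with AA2P (limma, adjusted p = 0.454). miR-6782-3p stood at 170.24, 142.90 and 152.18 TPM and at 180.31, 174.27 and 177.59 TPM (limma, adjusted p = 0.149). miR-9843-3p, from within SGMS2, a sphingomyelin synthase gene, stood at 109.92, 133.20 and 109.52 TPM and at 150.76, 134.68 and 130.15 TPM (limma, adjusted p = 0.162). The groups overlapped for miR-1343, while for miR-6782-3p all AA2P libraries lay above the controls. For miR-9843-3p control replicate 2 lay among the AA2P libraries. The remaining one of the 10 most abundant, miR-3613, was the only one of them to pass the test and is described below.

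**Figure D1:**
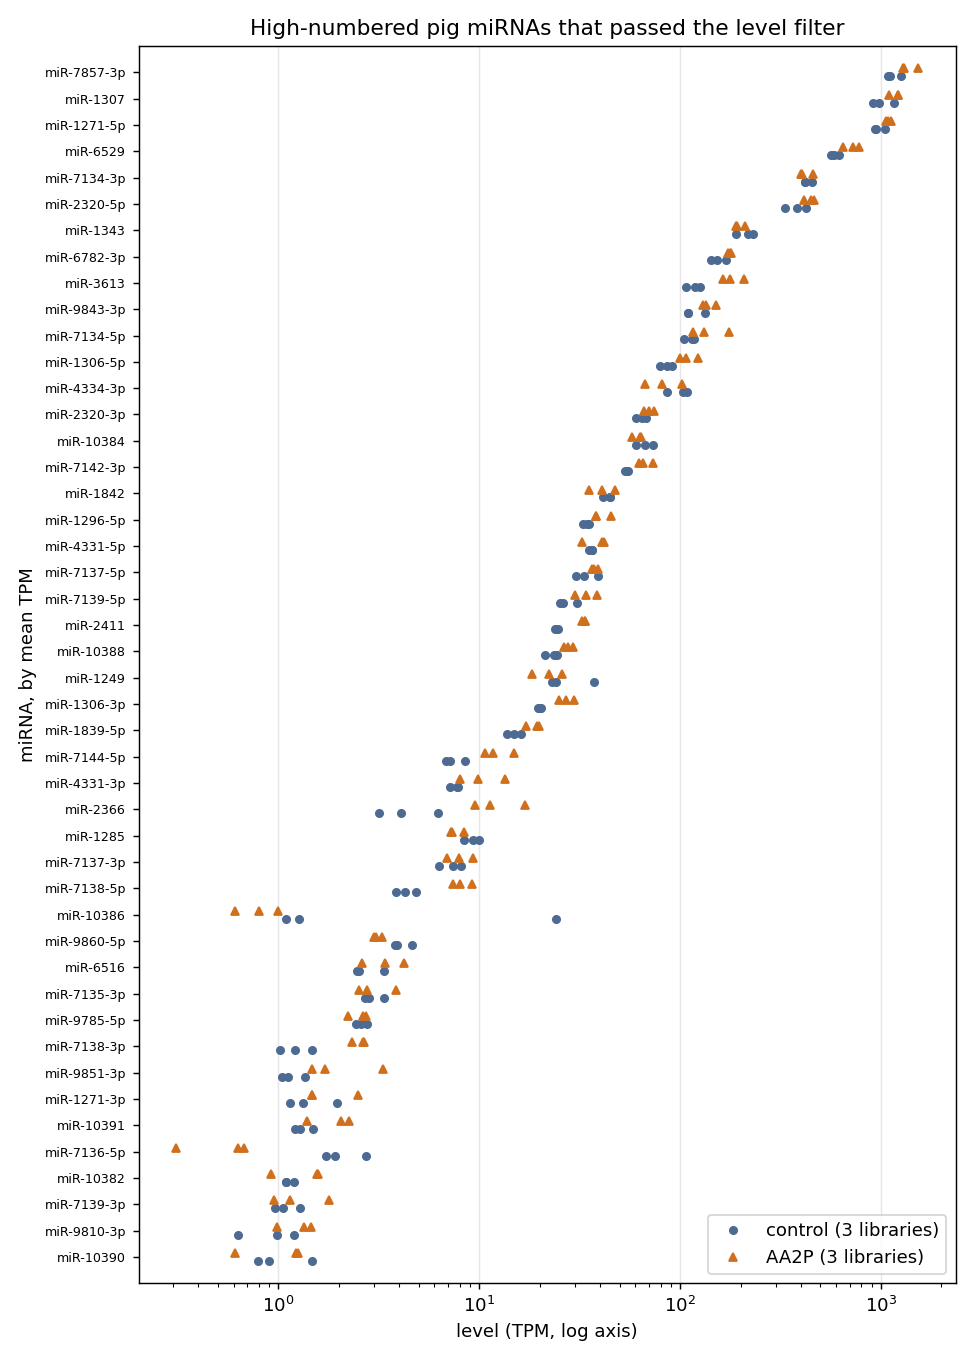
Level of each of the 46 high-numbered miRNAs that passed the filter on low values, in TPM on a log axis, with 1 point per library (circles control, triangles AA2P). The 3 most abundant lie between 913.33 and 1535.48 TPM in all 6 libraries, and miR-10386 has 1 control library at 24.08 TPM with the other 5 libraries at 0.61 to 1.27 TPM.

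Most entries carried pig numbers, but most of the TPM did not. The names were grouped from general knowledge of miRNA numbering and not from the files. By number, 41 of the 66 entries fall in ranges first given to pig hairpins (miR-4331 to miR-4337, miR-7134 to miR-7144, miR-9784 to miR-9860, and miR-10382 to miR-10391), and these held 16.9% of the summed TPM. The 16 entries whose number is shared with a human miRNA held 54.5%, the 6 named first in cattle or mouse 8.29%, and the 3 of other numbers, miR-7857-3p among them, 20.3%. Pig numbers were thus the majority of the names and the minority of the amount. Whether these miRNAs are restricted to a lineage was not tested. Among the pig numbers, the range from miR-7134 held most in both groups (686 ± 30.9 TPM in controls and 739 ± 63.0 TPM with AA2P), and the others held less, those from miR-4331 (144 ± 13.6 and 133 ± 25.1 TPM), miR-9784 (127 ± 13.7 and 148 ± 12.4 TPM) and miR-10382 (102 ± 19.9 and 94.7 ± 4.99 TPM).

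The RefSeq table (assembly Sscrofa11.1) allowed a check of which catalogued hairpins had an entry. It names 97 pig hairpin numbers of 1200 or more, and 37 of them had an entry among the 66. From MIR1224 to MIR1468 the share was 8 of 8, from MIR7134 to MIR7144 it was 10 of 11, and among numbers of the range around MIR9784 to MIR9860 it was 10 of 66. Of the entries in that last range, miR-9843-3p alone exceeded 10 TPM. No match was found for 15 of the 52 numbers, among them miR-3613, miR-6529, miR-1285, miR-1842 and all 6 numbers from miR-10382 on. Of the 35 matched hairpins with a place on a chromosome, 25 lay within the span of a protein-coding gene, 3 within a lncRNA gene and 7 in no gene. The table gives no strand, so a hairpin on the opposite strand of its gene cannot be told apart, and the mRNAs themselves were not measured.

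Treatment with AA2P went with a change in 8 of the 46 tested members, 7 higher and 1 lower (limma on log2(TPM + 1), adjusted p under 0.05 over all 433 tested entries). The 1 lower, miR-7136-5p, entered the test only because it was high enough in the controls, so its direction was largely set by the filter. Over all 433 entries the same test called 24.7%, with 19.9% higher and 4.85% lower, and for the members the share was 17.4%. By direction without regard to the test, 34 members had a positive and 12 a negative log2 fold change, with a median of 0.21, against a median of 0.25 over all tested entries. Of the rises, 2 were among the 13 tested members with numbers shared with human (miR-3613 and miR-1306-3p). Another 2 were among the 5 with cattle or mouse numbers (miR-2411 and miR-2366). The remaining 3 were among the 26 with pig numbers (both arms of miR-7138, and miR-7144-5p). miR-7136-5p also carries a pig number. The groups of names were not compared by a test. The other 20 members did not pass the filter of at least 1 TPM in at least 3 libraries, so none of these counts covers them. Leaving out control replicate 3 gave 2 calls (of all entries, 14.3%), control replicate 2 gave 3 (17.3%) and AA2P replicate 1 gave 4 (19.4%). Without control replicate 1 or AA2P replicate 3 there were 5 (18.9 and 21.7%), and without AA2P replicate 2 there were 7, all higher (22.6%).

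Calls fell at all levels of the members. Of the members, 5 of 20 were called at a mean of 1 to 10 TPM (25.0%), 2 of 15 at 10 to 100 TPM (13.3%) and 1 of 11 at 100 TPM or more (9.09%). For known miRNAs of lower number the counts were 6 of 40, 19 of 56 (33.9%) and 51 of 122 (41.8%). The difference between these shares was not tested. The median coefficient of variation within groups was at the top level 9.10% in members and 9.23% in lower numbers, and was 7.95 and 11.2% at 10 to 100 TPM and 19.4 and 17.7% at 1 to 10 TPM. The count also differed with the entries that entered the fit: with no filter 1 of 66 members was called (3.47% of all entries), with 1 TPM required in all 6 libraries 9 of 40 (43.8%), with a mean of at least 10 TPM 5 of 26 (37.6%), and among known miRNAs only 11 of 46 (42.8%).

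In the deposited TPM, miR-3613 was the only member over 100 TPM to be called. It stood at 119.02, 106.90 and 125.97 TPM in controls and at 207.18, 163.48 and 176.82 TPM with AA2P, so every AA2P library lay well above every control. The rise was 1.56-fold (log2 fold change 0.63, SE 0.117; limma, adjusted p = 0.0128). Its call held with any 1 library left out, and it was the only call among the members to hold with no filter on low values (limma, adjusted p = 0.0375). Under 4 of 5 other scalings it did not pass (limma, adjusted p = 0.0534 to 0.156). Over these 5 scalings the median change of the 433 entries, on the log2 scale, lay between -0.01 and 0.07, against 0.25 as deposited, and that of miR-3613 between 0.34 and 0.45.

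miR-2411 lies within UBAP2L, a gene for a protein of stress granules. Its values were tight: 24.04, 24.62 and 23.74 TPM in controls and 33.68, 33.80 and 32.35 TPM with AA2P. The rise was 1.38-fold (log2 fold change 0.45, SE 0.0798; limma, adjusted p = 0.0108). This small but even difference did not pass under any of the 5 other scalings (limma, adjusted p = 0.0765 to 0.261), nor without control replicate 3 (0.0527).

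miR-2366 had the largest fold of the 7 members called higher in the deposited TPM. One locus of this name, MIR2366-1, lies within MAP1A, which encodes a microtubule-associated protein. The miRNA stood at 6.27, 3.16 and 4.09 TPM in controls and at 11.28, 16.96 and 9.57 TPM with AA2P. The groups did not overlap, although the AA2P libraries differed more among themselves than the nearest libraries of both groups. The rise was 2.80-fold (log2 fold change 1.31, SE 0.285; limma, adjusted p = 0.0197). It passed under 4 of 5 other scalings but not under quantile normalization (0.0647), nor without control replicate 2 (0.0608), control replicate 3 (0.0740) or AA2P replicate 1 (0.0520).

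Both arms of miR-7138 rose. Its hairpin lies within FGFR4, a gene for a receptor of fibroblast growth factors. miR-7138-5p stood at 3.87, 4.28 and 4.85 TPM in controls and at 8.08, 9.26 and 7.45 TPM with AA2P, which is 1.91-fold higher (log2 fold change 0.80, SE 0.142; limma, adjusted p = 0.0108). miR-7138-3p went from 1.47, 1.02 and 1.22 TPM to 2.64, 2.67 and 2.34 TPM, which is 2.06-fold higher (log2 fold change 0.67, SE 0.178; limma, adjusted p = 0.0390). For each arm all AA2P libraries lay above all controls. The 5p arm passed under all 5 other scalings and with any 1 library left out. It did not pass with no filter on low values (limma, adjusted p = 0.0592) or with the replicate number as a block (0.0591). The 3p arm was read at about 33 to 96 reads per library. It passed neither under these scalings nor with any 1 library left out (limma, adjusted p = 0.0661 to 0.119), nor with a pseudocount of 0.1 (0.0503).

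miR-7144-5p, from within ARGLU1, a gene for a splicing cofactor, stood at 6.85, 7.19 and 8.54 TPM in controls and at 10.72, 14.90 and 11.79 TPM with AA2P. It rose 1.66-fold (log2 fold change 0.65, SE 0.159; limma, adjusted p = 0.0297). Its other arm, miR-7144-3p, was above 0 in 1 library only, at 0.07 TPM. The call of miR-7144-5p ended under all 5 other scalings (limma, adjusted p = 0.0765 to 0.253) and without any 1 of the control libraries or AA2P replicate 3 (0.0589 to 0.0912).

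miR-1306 comes from a hairpin within DGCR8, the gene for the RNA-binding partner of Drosha, and the Microprocessor is known to cut hairpins in the DGCR8 transcript itself. miR-1306-3p stood at 20.09, 19.69 and 20.44 TPM in controls and at 29.62, 25.13 and 26.94 TPM with AA2P. It rose 1.36-fold (log2 fold change 0.42, SE 0.0969; limma, adjusted p = 0.0249). The more abundant miR-1306-5p stood at 86.61, 91.27 and 79.13 TPM and at 123.03, 107.02 and 100.11 TPM, 1.28-fold higher, with no overlap between the groups, and did not pass (limma, adjusted p = 0.0615). The call of miR-1306-3p ended under all 5 other scalings (0.173 to 0.488) and without any 1 library but AA2P replicate 2 (0.0625 to 0.0805).

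miR-7136-5p was the one member called lower. Its hairpin lies in no gene of the RefSeq table, next to TMEM170B. It stood at 1.74, 1.92 and 2.74 TPM in controls and at 0.63, 0.31 and 0.68 TPM with AA2P, so the groups were far apart, at about 11 to 83 reads per library. The mean was 3.95-fold lower with AA2P (log2 fold change -1.02 on the log2(TPM + 1) scale, which understates the change of such a low entry, SE 0.232; limma, adjusted p = 0.0233). It passed the filter through the control libraries only, so the test could hardly have called it higher, and its call is given as a description. Its other arm, miR-7136-3p, was read at 0.12, 0.09 and 0.16 TPM in controls and at 0, 0.03 and 0.09 TPM with AA2P. The adjusted p was under 0.05 with each of the 5 other scalings, and over it without control replicate 2 (0.0611), control replicate 3 (0.0830), AA2P replicate 1 (0.0520) or AA2P replicate 2 (0.0530), all by limma.

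**Figure D2:**
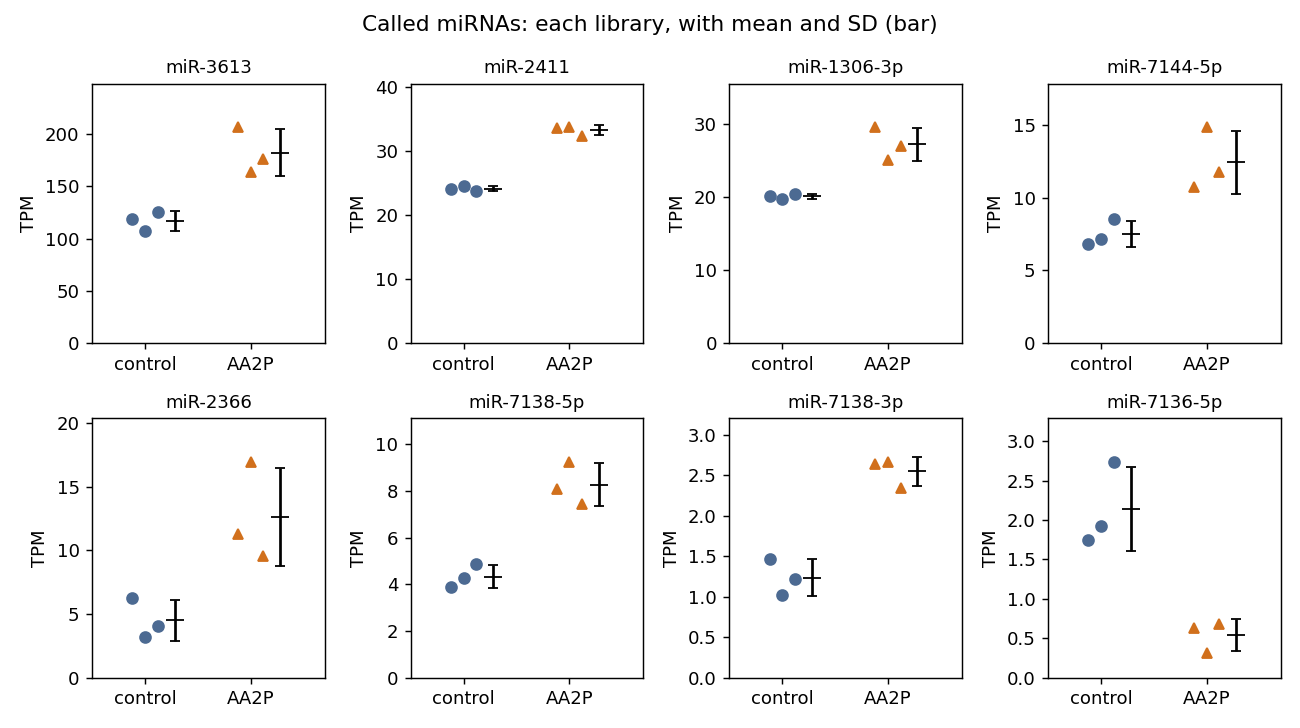
The 8 called members, with 1 panel each. Points are single libraries in TPM on axes that start at 0 (circles control, triangles AA2P), and the bar beside each group gives its mean and SD (n = 3). In every panel the groups are apart, and miR-7136-5p alone is lower with AA2P.

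In the deposited TPM the AA2P and control libraries did not overlap for 21 of the 46 tested members, 18 with AA2P above and 3 below. Over all tested entries this held for 49.7%, with AA2P above in 40.4% and below in 9.24%. The 13 of these members without a call included 11 with AA2P above. Among them were miR-7142-3p, from within the polarity kinase gene MARK2 (54.4 ± 0.990 and 67.2 ± 5.43 TPM; adjusted p = 0.0577), and miR-6529 (adjusted p = 0.0746). miR-1839-5p (14.9 ± 1.24 and 18.8 ± 1.41 TPM; adjusted p = 0.0908) and miR-10388 (23.1 ± 1.68 and 27.9 ± 1.48 TPM; adjusted p = 0.0984) came next. miR-1296-5p, from within the JmjC-domain gene JMJD1C, stood at 34.1 ± 1.13 and 40.6 ± 4.02 TPM (adjusted p = 0.129). miR-9851-3p, from within HSPA12A, stood at 1.18 ± 0.163 and 2.17 ± 0.998 TPM (adjusted p = 0.208). miR-4331-3p stood at 7.61 ± 0.361 and 10.4 ± 2.75 TPM (adjusted p = 0.181). The 2 with AA2P below were miR-10386 and miR-9860-5p (4.12 ± 0.459 and 3.12 ± 0.139 TPM; adjusted p = 0.155). All adjusted p-values here are from limma.

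The other tested members had overlapping groups. Between 10 and 100 TPM these were miR-4334-3p (99.1 ± 11.4 and 83.8 ± 17.8 TPM), from within the aminopeptidase gene DNPEP, miR-2320-3p (64.3 ± 3.59 and 70.0 ± 4.03 TPM), miR-10384 (67.0 ± 6.53 and 61.7 ± 3.46 TPM) and miR-1842 (43.7 ± 2.18 and 41.2 ± 6.15 TPM). They also included miR-4331-5p (36.0 ± 0.672 and 38.4 ± 5.07 TPM), miR-7137-5p (34.2 ± 4.42 and 37.7 ± 1.36 TPM), miR-7139-5p (27.3 ± 2.84 and 34.2 ± 4.35 TPM) and miR-1249 (28.2 ± 8.02 and 22.2 ± 3.73 TPM). miR-7137 comes from within BUD23, an rRNA methyltransferase gene, miR-7139 from within E2F7, a gene for a repressor of the cell cycle, and miR-1249 from within KIAA0930. None passed the test, and for all of them except miR-2320-3p and miR-7139-5p the larger SD exceeded the difference of the means.

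Below 10 TPM, miR-1285 stood at 9.22 ± 0.783 and 7.67 ± 0.647 TPM and miR-7137-3p at 7.28 ± 0.888 and 8.07 ± 1.18 TPM. The members near 3 TPM were miR-6516 (2.78 ± 0.494 and 3.42 ± 0.815 TPM), miR-7135-3p (2.96 ± 0.344 and 3.06 ± 0.716 TPM), from within the export pump gene ABCC1, and miR-9785-5p (2.59 ± 0.161 and 2.54 ± 0.282 TPM). Those near 1 TPM were miR-1271-3p (1.48 ± 0.431 and 1.81 ± 0.586 TPM), miR-10391 (1.33 ± 0.142 and 1.90 ± 0.450 TPM), miR-10382 (1.13 ± 0.0635 and 1.35 ± 0.372 TPM) and miR-7139-3p (1.10 ± 0.164 and 1.29 ± 0.440 TPM). The list ends with miR-9810-3p (0.940 ± 0.288 and 1.26 ± 0.240 TPM), from within MPC2, a gene of the mitochondrial pyruvate carrier, and miR-10390 (1.05 ± 0.365 and 1.03 ± 0.367 TPM). For all of these except miR-1285, miR-10391 and miR-9810-3p the larger SD exceeded the difference of the means. The groups of miR-1285 met only at 8.40 TPM in control replicate 2 and 8.41 TPM in AA2P replicate 1.

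The signs of the members' changes moved with the scaling, and so did those of all entries. As deposited, 34 members had a positive log2 fold change and 12 a negative one, with a median of 0.21 beside 0.25 over all 433 entries. Under trimmed-mean scaling 19 were positive and 27 negative, with a median of -0.04 beside a median of -7.5e-05 over all entries. With the 10 most abundant entries out of the totals 28 were positive and 18 negative, with a median of 0.04 beside 0.07. Under the other 3 scalings 16 to 20 were positive. A shift of all entries by this much changes the sign of members near the median, so these counts say little about the members themselves. Trimmed-mean scaling called 2 members higher and 6 lower (11.1 and 11.8% of all entries), and so did median-of-ratios scaling (11.1 and 11.5%). Quantile normalization called 1 higher and 4 lower (10.2 and 9.24%). Totals without miR-21-5p gave 2 higher and 3 lower (9.01 and 9.93%), and totals without the 10 most abundant entries 3 higher and 1 lower (12.7 and 8.31%). The sign was the same under all 6 scalings for 14 positive and 12 negative members and changed for 20. miR-7138-5p was called higher under each of them. Some members without a call as deposited passed as lower under others: miR-1285 under 4 of the 5, miR-7134-3p and miR-1343 under 3 each, and miR-9860-5p and miR-10384 under 2 each. miR-1271-5p turned from a log2 fold change of 0.16 to a called -0.31 under quantile normalization (limma, adjusted p = 0.0453).

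**Figure D3:**
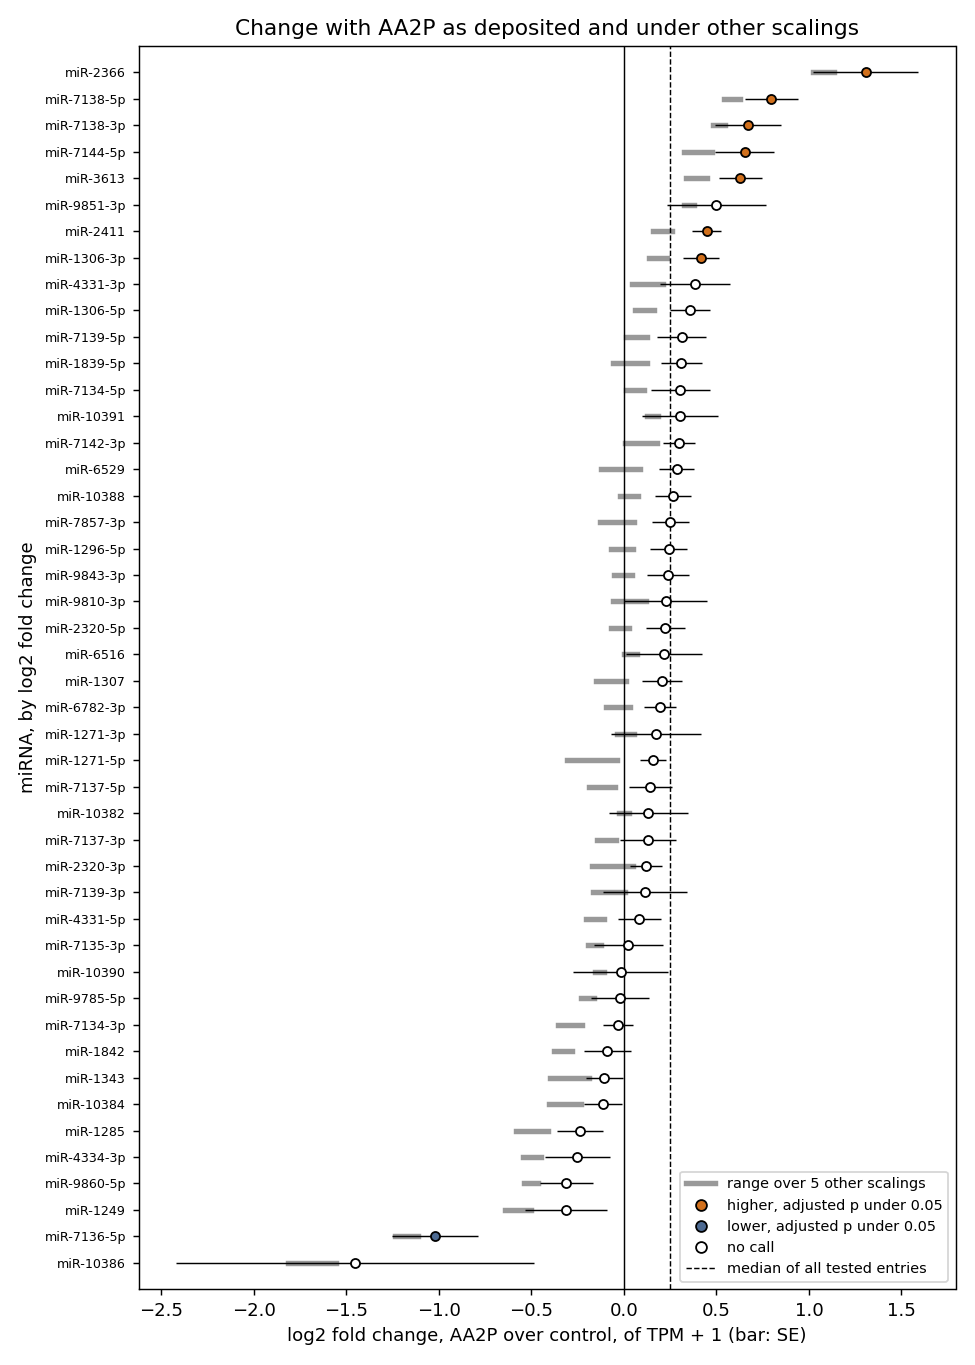
Log2 fold change of TPM + 1 (AA2P over control) of the 46 tested members as deposited, with points filled for calls and bars for the SE, and its range under 5 other scalings in grey. The dashed line is the median of all 433 tested entries, 0.25, and the grey ranges of most members lie left of their points, many of them across 0.

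How a hairpin's TPM divides between its arms does not change when a library is multiplied by 1 factor, though quantile normalization can change it. Both arms were listed for 14 members' hairpins, and in 13 of them they summed to 1 TPM or more on average. The 5p arm dominated in all 6 libraries in 10 of these and the 3p arm in 3, miR-7134, miR-7135 and miR-7142. miR-1271, the most abundant of these hairpins, had 99.8% of its TPM on the 5p arm in both groups. miR-7142 had 0.588% ± 0.201 on its 5p arm in controls and 0.699% ± 0.00538 with AA2P.

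For miR-7134 the 5p arm stood at 115.34, 117.97 and 104.64 TPM in controls and 175.17, 116.53 and 132.18 TPM with AA2P, beside the 3p values given above. The 5p share was 20.3, 22.0 and 20.1% in controls and 27.7, 22.4 and 24.8% with AA2P. Every AA2P library lay above every control, the nearest by under 1 percentage point. The log2 ratio of 5p to 3p differed by 0.34 (SE 0.142), which did not pass over the 39 hairpins with both arms at a mean of at least 10 TPM (limma, unadjusted p = 0.0346, adjusted p = 0.277). Over all of these hairpins 0% was called, with 4 at an unadjusted p under 0.05, of which miR-7134 was the only one among the 3 hairpins of members tested. miR-2320-3p stood at 67.64, 64.69 and 60.50 TPM in controls and 70.26, 73.86 and 65.82 TPM with AA2P. For miR-2320 the 5p share was 85.4% ± 1.44 and 86.3% ± 0.487 and for miR-1306 81.0% ± 1.40 and 80.1% ± 1.17 (adjusted p = 0.810 and 0.859 by limma). The remaining ones had an arm too low for that test. With both arms at a mean of at least 1 TPM, 60 hairpins were tested, 8 of them of members, and none was called (smallest adjusted p of all = 0.0530, limma), with 10 at an unadjusted p under 0.05, 1 of a member. miR-4331 had 82.5% ± 0.904 and 78.8% ± 2.71 on its 5p arm, with every AA2P library below every control. miR-7138, whose arms both rose, had 77.7% ± 4.56 and 76.4% ± 1.15, with overlapping groups.

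**Figure D4:**
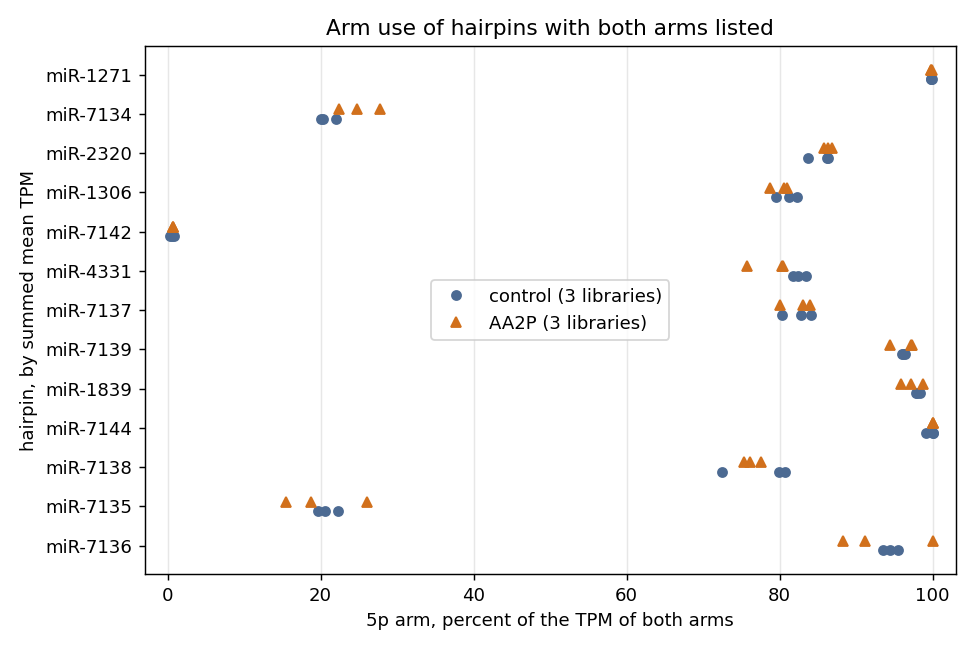
Share of the 5p arm in the TPM of both arms, in percent, for the 13 hairpins whose arms sum to a mean of at least 1 TPM, with 1 point per library (circles control, triangles AA2P). The hairpins at the 3p side are 3, miR-7134, miR-7135 and miR-7142, and the points of miR-7134 lie at 20.1 to 22.0% in controls and 22.4 to 27.7% with AA2P, a difference that did not pass the test.

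A pair of members stood far up in a single control library. miR-10386 was at 24.08 TPM in control replicate 1 and at 1.27, 1.09, 1.00, 0.61 and 0.80 TPM in the other libraries, 19.0 times the next highest. miR-4332 was at 4.41 TPM in the same library and at 0 to 0.30 TPM in the others. They were singled out after their values were seen. Of all entries, 134 reached at least 1 TPM in 1 library and at least 4 times the level in any other, with 15 to 29 in each library. Of these, 3 were known miRNAs, these 2 and miR-223 in AA2P replicate 1. Without control replicate 1 the control mean of miR-10386 was 1.18 TPM, against 0.803 TPM with AA2P. With all libraries its mean was 11.0-fold lower with AA2P, and this did not pass (limma, adjusted p = 0.310).

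The 20 members that did not pass the filter stayed under 1 TPM in every library, except miR-4332 in control replicate 1 (4.41 TPM). In 7 of them no library reached 3 reads: miR-1224, miR-7143-5p, miR-7144-3p, miR-9784-5p, miR-9807-5p, miR-9848-3p and miR-9859-3p, at no more than 0.07 TPM. miR-9859 lies next to MIR222 in the RefSeq table and was read in 1 library, at 0.04 TPM. All 6 libraries reached 3 reads for miR-1277 (0.31 to 0.93 TPM), miR-7135-5p (0.64 to 0.89 TPM) and miR-1839-3p (0.22 to 0.82 TPM). The same held for miR-9820-5p (0.19 to 0.63 TPM), miR-7142-5p (0.20 to 0.52 TPM) and miR-1388 (0.19 to 0.36 TPM). The others besides miR-4332 were miR-4337, miR-9788-3p, miR-7143-3p, miR-1468, miR-7136-3p and miR-7140-3p, at no more than 0.39 TPM.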

How the data were processed

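The authors deposited 1 table of TPM for 6 small RNA libraries. Bowtie is named per the submitters' processing notes, with no role or version. Not given in the sources used here: genome build, miRBase release, mismatches, and how reads shared by near-identical miRNAs were counted. Columns sum to about 1000000 over known and predicted entries, and low values step by 1 shared amount per library, which gave the depths. The step could be read only within rounding, so no count test was run.

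Entries that reached 1 TPM in 3 or more libraries were tested with limma 3.58.1 (R 4.3.3, mean-variance trend, two-sided, Benjamini-Hochberg) on log2(TPM + 1), and ratios of arms with limma without a trend. The code was tested on simulated data. Folds are ratios of mean TPM. Every tested member is named, and library values are printed for called members, the 10 most abundant and both arms of tested hairpins. Members and lists were chosen with earlier results of these data known. Deviations of same-numbered libraries correlated at 0.29, 0.06 and 0.18, not all over 0.1, so no block was used in the main fit. Those of differently numbered libraries correlated at -0.26 to 0.11, and a block was run as an alternative. Gene names come from RefSeq's table. Members were not compared by seed, since no sequences were used here. Limits from depth cover counting error only.

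Alternatives were 3 other pseudocounts, 3 other filters, 5 other scalings, known miRNAs only, no trend, a replicate block and each library left out.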

Additional observations from a re-analysis of the deposited data

Results flagged for a closer look

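miR-1468 was too low to be tested. It was under 3 reads in all control libraries (0, 0 and 0.03 TPM) and reached 0.25 TPM in AA2P replicate 2, above that limit, with 0.11 and 0.06 TPM in AA2P replicates 1 and 3. It was picked out because a signal above the control level appeared in an entry outside the test. No groups of 4 or more libraries exist, so single libraries were not screened as outliers.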

How the results depend on the processing

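The balance of 8 calls, 7 higher and 1 lower, moved with the scaling. It became 2 higher and 6 lower under both median-of-ratios and trimmed-mean scaling, 1 and 4 (5 in all) under quantile normalization, 2 and 3 (5 in all) with miR-21-5p out of the totals, and 3 higher (4 in all) with the 10 most abundant entries out of the totals. The lower calls under each of these scalings include miR-7136-5p, which had passed the filter through the control libraries only. With no filter there was 1 call, higher, and 0 lower (2.92 and 0.547% of all entries). A mean of at least 10 TPM gave 5 in all and 0 lower (37.6 and 7.06% of all entries). With 1 TPM required in all 6 libraries there were 0 lower (7.25%). Both filters remove miR-7136-5p, so its call could not be made there. Known miRNAs alone gave 2 lower, beside 7.2% lower among all 264 tested there. With the replicate number as a block, where the pairing is by number only, 1 call, higher, was left (miR-3613; limma, adjusted p = 0.0259) and 0 lower. Over all 433 entries the block left 14.5% called, with 12% higher and 2.54% lower. Leaving out each library gave 2 to 7 calls (of all entries, 14.3 to 22.6%). Of these, 2 to 7 were higher (12.5 to 18% of all entries) and 0 to 1 lower (1.85 to 4.62%). No arm ratio of a member was called in any alternative run. Over all hairpins, 7.69% of 39 were called without control replicate 2, and 0% in each other alternative. The summed TPM of the members, with a ratio of 1.14 as deposited, went to 0.949 (median-of-ratios), 0.943 (trimmed mean) and 0.933 (without miR-21-5p), and was 1.12 to 1.19 with each library left out. miR-1271-5p turned to -0.31 under quantile normalization. Of the members' log2 fold changes, 731 alternative values kept direction and side of the threshold, 63 lost a call, 22 gained one, 77 changed sign without a call and 1 turned with a call. The cause was not tested. Under 1 TPM a value rests on at most 36.0 reads.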
